A study of Mus musculus with 6 samples.

Results

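Brown and brite adipocytes can produce heat without uncoupling protein 1, and 10 mouse genes of these alternative routes were followed here in primary brite adipocytes after knockdown (KD) of the long noncoding RNA *Ctcflos*. They are the creatine kinases *Ckb*, *Ckmt1* and *Ckmt2*, the creatine synthesis enzymes *Gatm* and *Gamt*, the creatine transporter *Slc6a8*, the phosphatase *Alpl*, the calcium pump *Atp2a2*, the calcium channel *Ryr2* and the *N*-acyl amino acid enzyme *Pm20d1*. They were taken by their symbols, as a group of known function, and all 10 are among the 52089 symbols of the deposited table.

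In the creatine cycle, a kinase transfers phosphate from ATP to creatine, and hydrolysis of the phosphocreatine lets the same creatine be phosphorylated again, so that ATP is spent and heat is released. In calcium cycling, the SERCA pump encoded by *Atp2a2* moves calcium into the endoplasmic reticulum at the cost of ATP, and the ryanodine receptor encoded by *Ryr2* lets it out again. *Pm20d1* is a secreted enzyme that joins fatty acids to amino acids, and its products can uncouple mitochondria.

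The cells were preadipocytes of the stromal-vascular fraction from inguinal white fat of mice of the 129SvEv strain, induced for 2 days and then differentiated for 1 day with rosiglitazone, a PPARγ agonist that drives browning. They were reverse transfected with 50 nM of an LNA Gapmer antisense oligonucleotide, either against *Ctcflos* (*Ctcflos* KD, 3 libraries) or without a target (NC ctrl, 3 libraries), and total RNA was harvested 24 h later. Both groups thus share strain, rosiglitazone and transfection, and differ in the oligonucleotide, with a single targeting oligonucleotide for these libraries. The labels do not say whether libraries of a group came from separate cultures, so that p-values measure the spread between these libraries.

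The values are RPKM, that is, reads normalised to transcript length and library depth, for each transcript accession, and the level of a gene is the mean RPKM of its accessions. The depth recovered from the values was 60.8 to 75.5 mio mapped reads in *Ctcflos* KD and 62.9 to 79.2 mio in controls. *Ctcflos*, listed as 1300015D01Rik, was at 0.0969, 0.0705 and 0.210 RPKM in KD replicates 1 to 3 and at 0.748, 0.751 and 0.840 RPKM in controls, so 16.1% of the control mean was left. KD replicate 3 kept the most *Ctcflos* and stood apart from the other KD libraries. Across the 11701 genes with a mean of at least 1 RPKM, it correlated with control replicate 2 at r = 0.985 and with KD replicates 1 and 2 at 0.969 and 0.975. Control replicate 2 departed from its group on the same side. On the second principal component of these genes, KD replicate 3 lay at -21.5 and control replicate 2 at -10.5. The other libraries lay between 4.63 and 12.1. Whether the *Ctcflos* left in KD replicate 3 bears on its position was not tested. Results that rest on KD replicate 3 are also given without it. It was picked out from these same values as the KD library nearest to the controls. Leaving it out therefore favours larger differences and a smaller KD spread, and p-values without it are no independent support. As the label of the cells asks, adipocyte markers were strong: 10 of 10 passed the filter of 1 RPKM, with a summed level of 4296 to 5714 RPKM in KD and 5983 to 6650 RPKM in controls. *Ucp1* itself had 23.6, 26.1 and 12.4 RPKM in KD and 67.0, 27.1 and 57.3 RPKM in controls (log2 fold change -1.21, adjusted p = 0.0481 by limma).

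Among the 10 genes, 6 were hardly expressed or expressed below the filter and 4 passed it, namely *Atp2a2*, *Ckb*, *Gamt* and *Slc6a8*. Of these 4, 1 was called at an adjusted p under 0.05 by limma-trend on log2(RPKM + 1): *Ckb* was lower in KD. Of all 11701 genes tested, 12.4% were called lower and 11.5% higher. Without KD replicate 3 these shares were 17.8% and 23.3%. Calls of genes past the filter that are given without it are to be read beside these. In the fit without a filter, in which 4.71% of 38335 genes were called, none of the other 6 was called by limma, and 2 of them (*Ckmt1* and *Pm20d1*) had an unadjusted p under 0.05, as did 23.4% of all genes in that fit. The KD and control libraries did not overlap for *Ckb* and *Slc6a8*, that is for 2 of the 4, while 44.8% of all genes past the filter showed no overlap. In these bulk libraries, fewer cells that express a gene and less RNA per cell cannot be told apart.

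Levels of different genes were compared on curated RefSeq accessions, whose RPKM is per kilobase of transcript. In controls the order was *Atp2a2* (12.2 ± 0.586 RPKM, SD, n = 3), *Ckb* (2.93 ± 0.147), *Gamt* (2.16 ± 0.494), *Slc6a8* (1.99 ± 0.149), *Alpl* (0.724 ± 0.0633) and *Pm20d1* (0.214 ± 0.0181). *Gamt* and *Slc6a8* overlapped over the control libraries, and the other neighbours among these 6 did not. *Gatm*, *Ryr2*, *Ckmt2* and *Ckmt1* followed at 0.0185, 0.0137, 0.00849 and 0 RPKM, each resting on few reads. In KD, *Slc6a8* came after *Atp2a2*, at 3.70 ± 1.36 against 14.8 ± 3.42 RPKM. *Gamt*, *Alpl* and *Ckb* then lay close together, at 1.37 ± 0.386, 1.14 ± 0.474 and 1.06 ± 0.541 RPKM, with overlapping libraries. *Ckb* thus went from the second place to a place shared with *Gamt* and *Alpl*.

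**Figure D1:**
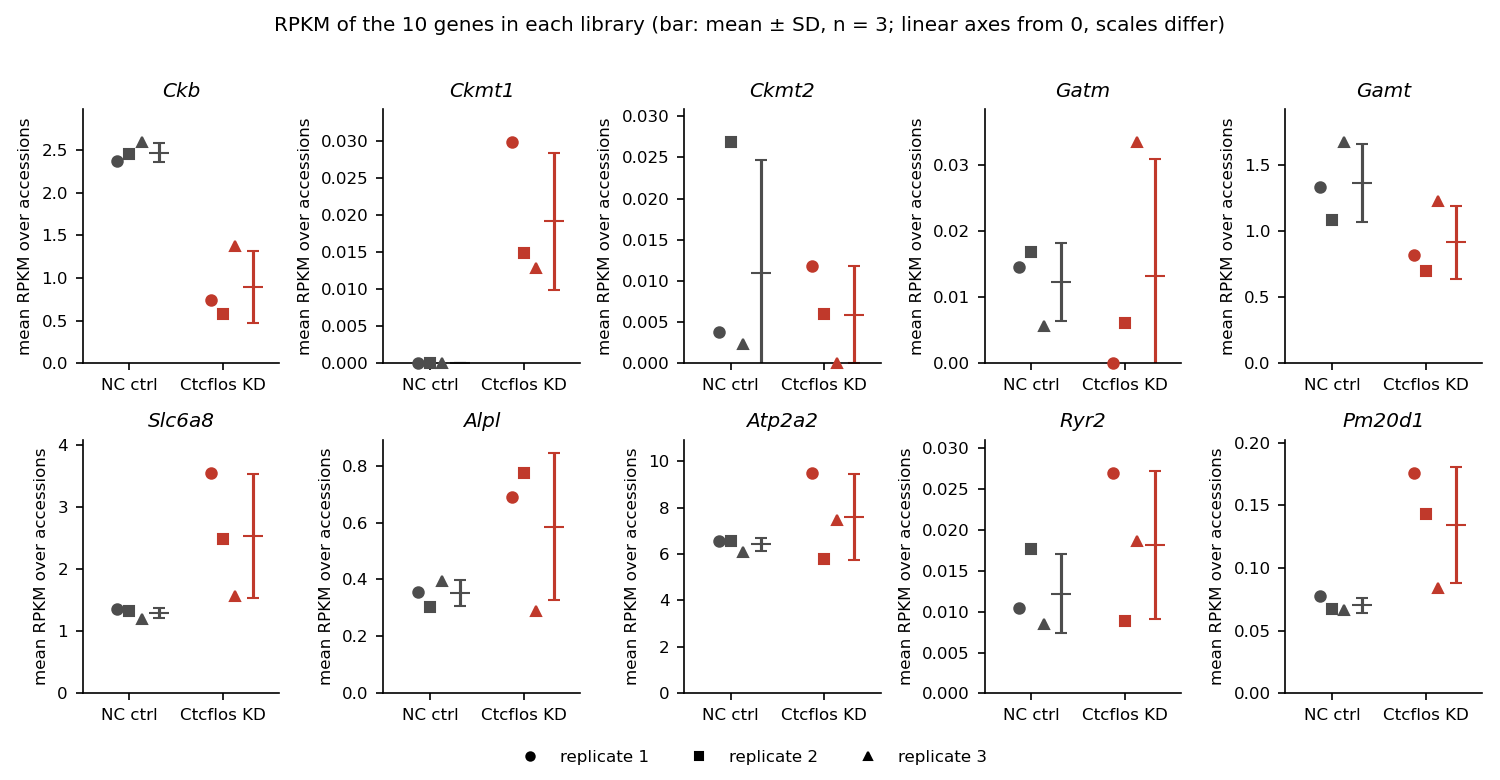
Level of each of the 10 genes in every library, as mean RPKM over the accessions of the gene (linear axes that start at 0 and differ between panels). Points are libraries, with the shape giving the replicate number, and bars give the mean ± SD of 3 libraries, cut at 0 where they would run below it; *Ckb* lies between 0.571 and 1.38 RPKM in *Ctcflos* KD and between 2.37 and 2.59 RPKM in controls.

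*Ckb* encodes the brain-type creatine kinase, the kinase that charges creatine in the cytosol and that is also found at mitochondria of thermogenic fat. The gene spans 2.98 kb on the minus strand of chromosome 12 (GRCm38, chr12:111669361-111672338) and no other annotated gene overlaps it. It was at 0.736, 0.571 and 1.38 RPKM in KD replicates 1 to 3 and at 2.37, 2.46 and 2.59 RPKM in the controls. Every KD library was below every control, and KD replicate 3, which kept the most *Ctcflos*, was the highest of the KD libraries. A relation between the *Ctcflos* left and the *Ckb* level was not tested. The KD mean was 36.2% of the control mean (0.895 ± 0.426 against 2.47 ± 0.112 RPKM, SD, n = 3). The log2 fold change was -0.90 (95% confidence interval -1.24 to -0.55, adjusted p = 0.00899 by limma).

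The reads behind these levels could be recovered. On the RefSeq mRNA of *Ckb*, 97, 71 and 150 reads were recovered in KD and 320, 346 and 285 in controls, although the control libraries were at most slightly deeper. Leaving out KD replicate 3, the KD mean was 26.4% of the control mean and the log2 fold change -1.07 (adjusted p = 0.000403 by limma), and KD replicate 3 alone was at 55.7%. Without control replicate 3 the log2 fold change was -0.87, with an adjusted p of 0.0526 by limma, just above the threshold. An exact two-sided permutation test of the *Ckb* levels gave p = 0.1, the smallest value that 3 libraries against 3 allow.

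All 4 *Ckb* accessions were tested and all 4 were called lower, against 26% of all accessions tested being called in either direction. Their log2 fold changes lay between -0.98 and -0.74. The accessions overlap and share reads, so they are no separate measurements.

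Since *Ckb* is the member that was called with all libraries, the 250 bases before its RefSeq start are shown (GRCm38.p6, chr12:111672339-111672588, minus strand), read 5′ to 3′. Capitals mark TATAAA, the letters of a TATA box, whose first base lies at position -28 when the start site is 0.
*Ckb* upstream: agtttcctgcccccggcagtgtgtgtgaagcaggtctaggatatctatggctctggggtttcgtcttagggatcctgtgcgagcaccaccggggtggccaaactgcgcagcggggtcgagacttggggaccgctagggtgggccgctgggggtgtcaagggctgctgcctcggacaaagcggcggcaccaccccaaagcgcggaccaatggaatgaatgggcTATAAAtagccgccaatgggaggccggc
Motifs were searched on both strands in such windows, and TATAAA was found in 12.4% of all 32851 promoters of the RefSeq table. Of the other motifs searched, GGGCGG, the core of a GC box, stands in 32.7% of them, AGGTCA, a nuclear receptor element, in 14%, TGACGTCA, the cyclic AMP response element, in 1.55% and TCAAGGTCA, the letters of an estrogen-related receptor site, in 0.387%. None of these 4 was found in the *Ckb* window. The *Gamt* window (GRCm38.p6, chr10:80261013-80261262, minus strand) held GGGCGG 3 times, at -86, -67 and -22. A match describes these letters and is not evidence that a factor binds. *Slc6a8*, *Atp2a2* and *Pm20d1* have no entry in that table.

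The mitochondrial kinases were close to absent. *Ckmt1*, the ubiquitous mitochondrial creatine kinase, was listed at 0 in every control and at 0.0298, 0.0149 and 0.0128 RPKM in KD. Its RefSeq mRNA held about 4.08, 2.04 and 2.04 reads in KD, as estimated with the Gencode length, so no fold is given, and its gene is overlapped on the other strand by *Strc*. *Ckmt2*, the sarcomeric mitochondrial kinase, was at 0.0117, 0.00598 and 0 RPKM in KD and 0.00379, 0.0268 and 0.00235 RPKM in controls. The muscle-type kinase *Ckm* was read in KD replicate 2 and control replicate 2 at 0.0188 and 0.00892 RPKM and listed at 0 in the other libraries. Of the creatine kinase genes, *Ckb* therefore gave nearly all reads in both groups at this time of differentiation.

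Creatine is made in a pair of steps, by the glycine amidinotransferase *Gatm* and the guanidinoacetate methyltransferase *Gamt*. *Gatm* had 0, 0.00605 and 0.0333 RPKM in KD and 0.0145, 0.0167 and 0.00560 RPKM in controls, which comes to no more than about 8.11 reads on its RefSeq mRNA in any library. A change of *Gatm* was not detectable at this depth. *Gamt* was at 0.817, 0.699 and 1.23 RPKM in KD and at 1.33, 1.08 and 1.67 RPKM in controls. KD replicate 3 lay among the controls, while KD replicates 1 and 2 were below all of them. The KD mean was 67.2% of the control mean, with a log2 fold change of -0.30 (95% confidence interval -0.62 to 0.01, adjusted p = 0.139 by limma). It was -0.42 without KD replicate 3 (adjusted p = 0.0322 by limma), at 55.7% of the control mean. On its RefSeq mRNA, 87, 77 and 104 reads stood in KD against 154, 127 and 159 in controls. Its 3 tested accessions had log2 fold changes of -0.42 to -0.40, with unadjusted p-values of 0.0245 to 0.0315 and adjusted p-values of 0.0764 to 0.0905 by limma.

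*Slc6a8* encodes the sodium-dependent transporter that takes up creatine from outside the cell, and it lies on chromosome X (GRCm38, chrX:73673150-73682502). It had 3.55, 2.49 and 1.56 RPKM in KD and 1.36, 1.32 and 1.20 RPKM in controls. All KD libraries were above all controls, but KD replicate 3 only narrowly, and the spread was much larger in KD (SD 0.995 against 0.0812 RPKM, n = 3). The mean ratio was 1.96, the log2 fold change 0.58 (95% confidence interval 0.15 to 1.02), and the adjusted p by limma 0.056, just above the threshold. KD replicates 1 and 2 alone against the controls gave a log2 fold change of 0.80, with an adjusted p of 0.00268 by limma.

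At the level of accessions, 8 of the 9 *Slc6a8* accessions tested were called higher, with adjusted p-values from 0.0348 to 0.0457 by limma, and the ninth had 0.0505. With RefSeq accessions alone, the gene was called as well, at a log2 fold change of 0.61 and an adjusted p of 0.0434 by limma. In that fit 2900 of 9585 genes were called in either direction, against 2803 of 11701 in the main fit. Several of the accessions differ from each other by few bases and share nearly all reads. On the coding transcript ENSMUST00000033752, about 1542, 1094 and 581 reads were estimated in KD and 670, 628 and 462 in controls. Without KD replicate 3, 9 of 9 accessions were called higher. None was called by limma when any other library was left out, or without the filter, although each of the 9 had an unadjusted p of at most 0.0131 with all libraries. The 4 *Ckb* accessions were called lower in each of these settings. The share of all accessions called was not counted in them. The call of *Slc6a8* and its accessions thus depended on the libraries, the filter and how accessions were averaged, while the log2 fold change of the gene was above 0 in every setting tried. In the same libraries *Ckb* was lower and *Slc6a8* higher, and the KD library with the smallest departure from the controls was replicate 3 for both.

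*Alpl*, the tissue-nonspecific alkaline phosphatase, hydrolyses phosphocreatine at mitochondria of thermogenic adipocytes and is otherwise best known from mineralizing bone. Its mean level was below the filter, at 0.688, 0.775 and 0.291 RPKM in KD and 0.356, 0.304 and 0.396 RPKM in controls. KD replicates 1 and 2 were above all controls and KD replicate 3 was below all of them. The log2 fold change in the fit without a filter was 0.22 (95% confidence interval -0.10 to 0.53, adjusted p = 0.386 by limma), and without KD replicate 3 it was 0.36 (adjusted p = 0.054 by limma). Its RefSeq mRNA held 246, 285 and 92 reads in KD and 147, 130 and 122 reads in controls, with the same split within the KD group. Markers of the osteoblast lineage, which also uses *Alpl*, had a summed level of 23.3 to 34.9 RPKM in KD and 10.9 to 27.0 RPKM in controls, nearly all of it *Spp1*. Of these 7 markers, *Spp1* alone passed the filter, and it was called higher without control replicate 2 but not with all libraries. The bone transcription factor *Sp7* was at 0.125, 0.118 and 0.204 RPKM in KD and at 0, 0.0536 and 0.0120 RPKM in controls, without overlap (adjusted p = 0.049 by limma without a filter). *Runx2* and *Phex* were also above the controls without overlap, at mean levels of 0.536 against 0.321 RPKM and 0.0254 against 0.00640 RPKM (adjusted p = 0.391 and 0.127 by limma without a filter), and *Bglap*, *Ibsp* and *Dmp1* were near 0 in both groups. Their part in the *Alpl* values was not tested.

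*Pm20d1* was weak in both groups, at 0.176, 0.143 and 0.0843 RPKM in KD and at 0.0774, 0.0674 and 0.0665 RPKM in controls. All KD libraries were above all controls, KD replicate 3 by a small margin. In the fit without a filter the log2 fold change was 0.083 (95% confidence interval 0.0040 to 0.16, adjusted p = 0.194 by limma). The pseudocount of 1 is large beside these levels: the ratio of the mean RPKM was 1.91. On its RefSeq mRNA, 244, 210 and 104 reads were found in KD and 124, 126 and 86 in controls. The adjusted p of *Pm20d1* by limma was 0.0442 without KD replicate 3, again in the fit without a filter. The share of all genes called in that fit without KD replicate 3 was not counted. Of the 10 genes, 4 did not overlap between groups (*Ckb*, *Slc6a8*, *Ckmt1* and *Pm20d1*), beside 28.1% of all genes with any value above 0.

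*Atp2a2* was by far the strongest gene of the set. It encodes SERCA2, the calcium pump of the endoplasmic reticulum, on chromosome 5 (GRCm38, chr5:122453513-122502225, minus strand). Its level was 9.50, 5.79 and 7.48 RPKM in KD and 6.57, 6.57 and 6.10 RPKM in controls. KD replicate 2 was below every control and KD replicates 1 and 3 were above every control, so that the groups overlapped. The log2 fold change was 0.19 (95% confidence interval -0.17 to 0.55, adjusted p = 0.394 by limma), an interval that holds values on both sides of 0. None of its 7 tested accessions was called by limma, and their unadjusted p-values were at least 0.121.

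The main SERCA2 forms differ in their C-terminal end. The mRNA with 998 codons, NM_009722, encodes the shorter form known from heart and slow muscle (SERCA2a), and NM_001110140, with 1044 codons, the ubiquitous longer form (SERCA2b). The shorter form made up 39.0, 40.7 and 38.6% of their summed RPKM in KD and 38.0, 40.7 and 40.3% in controls. The means were 39.4% ± 1.13 and 39.7% ± 1.47 (SD, n = 3, exact permutation p = 0.9). Most of both transcripts is common, and reads there count for each of them, so this share is pulled towards equal parts and is not the share of molecules.

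*Ryr2*, the cardiac ryanodine receptor, was at 0.0270, 0.00887 and 0.0186 RPKM in KD and at 0.0105, 0.0177 and 0.00851 RPKM in controls. On its RefSeq mRNA of 16814 bases, about 15.0, 7.01 and 9.00 reads were estimated in KD and 18.0, 25.0 and 9.00 in controls. *Ryr1* and *Ryr3*, the other ryanodine receptors, had mean levels of 0.00214 and 0.00655 RPKM in KD and of 0.000973 and 0.00895 RPKM in controls. No ryanodine receptor was therefore measured well enough for a comparison. Markers of skeletal and heart muscle, where these channels abound, summed to only 1.58 to 2.99 RPKM in KD and 2.12 to 5.01 RPKM in controls. Most of this was *Acta1*, at 1.26 to 2.85 RPKM in KD and 1.90 to 4.77 RPKM in controls. *Myh4*, *Tnni2* and *Myod1* were at 0 in all libraries.

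Other SERCA genes and regulators were weak as well. *Atp2a1*, the pump of fast muscle, had means of 0.0281 RPKM in KD and 0.0212 RPKM in controls. *Atp2a3* was at 0.591, 0.423 and 0.576 RPKM in KD and at 1.21, 0.732 and 1.12 RPKM in controls, without overlap (log2 fold change -0.39, adjusted p = 0.108 by limma without a filter). Sarcolipin (*Sln*), which uncouples calcium transport from ATP use in muscle, was listed at 0 in all 6 libraries. Phospholamban (*Pln*), an inhibitor of the pump, had 0.345 ± 0.173 RPKM in KD and 0.263 ± 0.0382 RPKM in controls (SD, n = 3).

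Whether the accessions within a gene were used differently was tested with limma diffSplice, since the study also asked about splicing. No change of usage was called in *Ckb*, *Gamt*, *Slc6a8* or *Atp2a2*, whose unadjusted p-values lay between 0.612 and 0.98, and 0.658% of the 10027 genes tested were called. Accessions of a gene overlap and share reads, so this test can miss a change of splicing. Of all 78 accessions of the 10 genes, 7 were at 0 in every library. In 16 the KD libraries were above the controls without overlap and in 4 below, and without overlap were 34% of all accessions with any value. The 4 below belong to *Ckb*, and of the 16 above, 11 belong to *Slc6a8*, 3 to *Pm20d1* and 2 to *Ckmt1*.

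**Figure D2:**
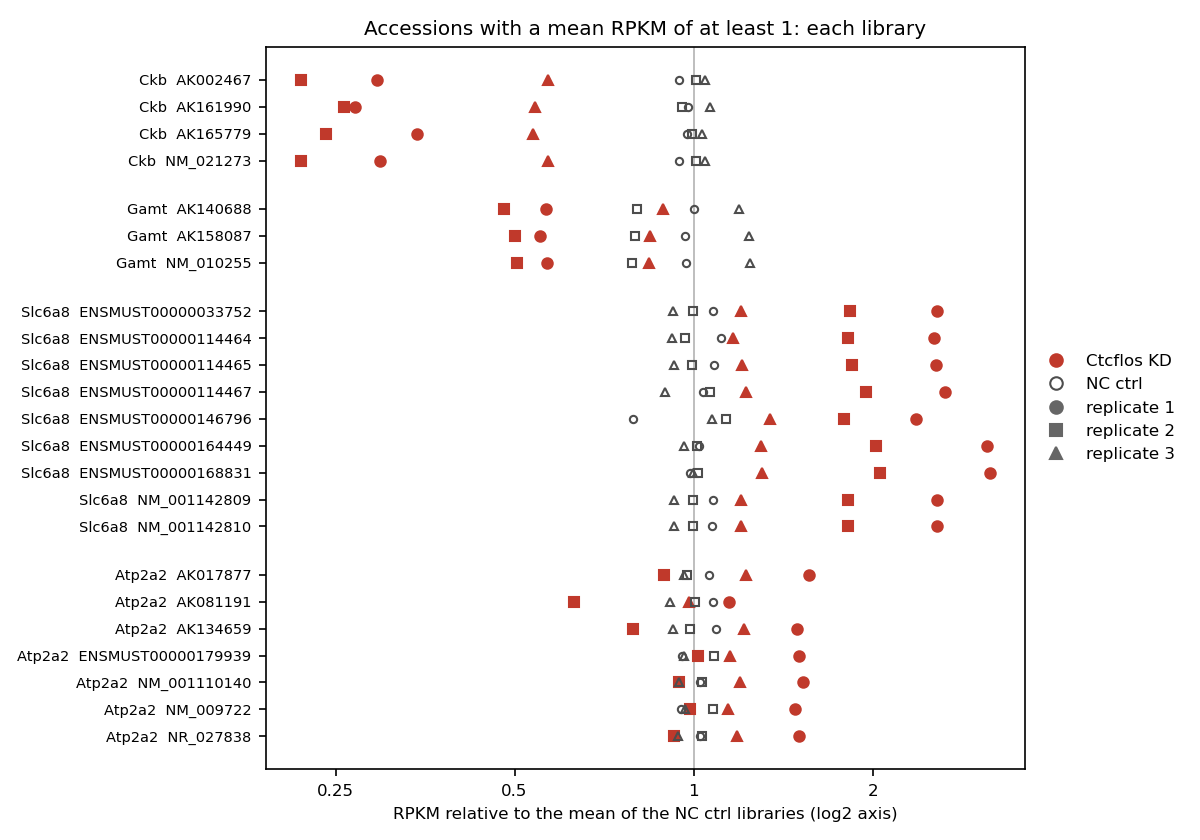
RPKM of each library relative to the control mean (log2 axis) for the 23 accessions of *Ckb*, *Gamt*, *Slc6a8* and *Atp2a2* with a mean of at least 1 RPKM. Filled red symbols are *Ctcflos* KD, open grey symbols controls, and shapes give the replicate number; all 4 accessions of *Ckb* are lower and all 9 of *Slc6a8* higher in every KD library, with KD replicate 3 nearest to the controls for these 2 genes, while the 7 of *Atp2a2* overlap with the controls.

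Related genes were grouped in 4 lists by function, 84 genes in all. Of these, 53 passed the filter, 4 were called higher and 10 lower in KD, and their median log2 fold change was -0.13, beside 0.03 over all genes tested. Of all genes tested, 11.5% were called higher and 12.4% lower, and the counts of each list are to be read beside these shares.

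The creatine and phosphagen neighbours (adenylate kinases, methyl donors, arginine metabolism, nucleotide and phosphate carriers) had 17 of 24 genes tested, of which 1 was higher and 1 lower, with a median of 0.08. *Ak3*, the adenylate kinase of the mitochondrial matrix, had 18.0, 20.01 and 25.2 RPKM in KD and 37.4, 32.0 and 37.4 RPKM in controls (log2 fold change -0.74, adjusted p = 0.0148 by limma). *Ahcy*, which clears the S-adenosylhomocysteine that methylation by *Gamt* leaves behind, had 3.96, 4.64 and 4.59 RPKM in KD and 2.41, 3.33 and 2.86 RPKM in controls (log2 fold change 0.48, adjusted p = 0.0227 by limma). For both, no KD library reached into the control range. Without KD replicate 3, 5 of 17 were higher and 3 lower, while over all genes 23.3% were higher and 17.8% lower. Without KD replicate 2, control replicate 1 or control replicate 3 neither *Ak3* nor *Ahcy* was called. In these settings 3.8%, 1.13% and 1.11% of all genes were called higher and 5.51%, 2.47% and 2.04% lower.

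Among genes of endoplasmic reticulum calcium, 21 of 39 were tested, with 3 higher and 4 lower in KD and a median of -0.13. The inositol trisphosphate receptor *Itpr1*, a calcium release channel, had 1.10, 0.820 and 1.26 RPKM in KD and 1.89, 2.08 and 2.08 RPKM in controls (log2 fold change -0.56, adjusted p = 0.0124 by limma). Calreticulin (*Calr*), which buffers calcium in the lumen, fell from 161, 198 and 183 RPKM to 98.9, 126 and 125 RPKM (log2 fold change -0.63, adjusted p = 0.0225 by limma). *Stim2*, a sensor of luminal calcium, rose from 2.06, 2.09 and 1.89 RPKM in controls to 4.53, 3.86 and 3.02 RPKM in KD (log2 fold change 0.66, adjusted p = 0.0127 by limma). *Calm2*, a calmodulin gene, rose from 23.5, 26.4 and 23.1 RPKM to 35.7, 40.7 and 34.8 RPKM (log2 fold change 0.59, adjusted p = 0.0155 by limma). The remaining calls were *Canx* and *Camk2d*, lower, and *Fkbp1a*, higher. *Calr* and *Canx* are chaperones of glycoprotein folding as well, and calmodulin serves many pathways. Without KD replicate 3, 4 of 20 were higher and 4 lower, beside 23.3% and 17.8% of all genes. Without control replicate 1 or control replicate 3 none was called by limma, whereas all 7 genes kept their direction with each library left out. Of all genes, 1.13% were higher and 2.47% lower without control replicate 1, and 1.11% and 2.04% without control replicate 3. Below the filter, *Itpr2*, another inositol trisphosphate receptor, had 0.475, 0.363 and 0.495 RPKM in KD and 1.28, 1.07 and 1.30 RPKM in controls. Its log2 fold change was -0.62 (adjusted p = 0.0279 by limma without a filter). *Itpr3* overlapped between groups, at means of 0.0674 RPKM in KD and 0.0707 RPKM in controls.

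Of 11 genes of mitochondrial calcium, 8 were tested, 3 were called lower and the other 5 did not pass the test, with a median of -0.32. *Mcu*, the channel subunit, had 0.496, 0.540 and 0.756 RPKM in KD and 2.06, 1.99 and 2.16 RPKM in controls (log2 fold change -0.95, adjusted p = 0.0026 by limma). Its gatekeeper *Micu2*, which senses cytosolic calcium, followed the same direction. *Micu2* had 2.09, 2.42 and 2.75 RPKM in KD and 6.48, 5.63 and 6.79 RPKM in controls (log2 fold change -1.10, adjusted p = 0.0026 by limma). For both genes the KD libraries, replicate 3 included, lay close together and far below the controls, and each was called whichever library was left out. The subunit *Smdt1* and the outer membrane channel *Vdac1* were at 93.6% and 102% of the control mean, with overlapping groups. *Mcur1*, a regulator of the channel, had a log2 fold change of -0.51 (adjusted p = 0.0357 by limma) and was called in 2 of the 6 settings that leave out a library.

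Gene length moved with these values. Of 922 tested genes that span at least 100 kb, 45% were called lower, with a median log2 fold change of -0.34, while of 8559 shorter genes 10.1% were called lower, with a median of 0.05. *Mcu* spans 170 kb, *Itpr1* 338 kb and *Camk2d* 250 kb, and these were lower, but *Stim2*, which spans 123 kb, was higher. *Micu2*, with 83.0 kb, *Mcur1*, with 21.8 kb, and *Ckb*, with 2.98 kb, belong to the shorter genes. The part of gene span in the values of the long genes was not tested.

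Of the *N*-acyl amino acid neighbours, amidases and acylases related in function to *Pm20d1*, 7 of 10 genes were tested, 2 were called lower and the other 5 did not pass the test. *Aspa*, which splits *N*-acetylaspartate, had 6.11, 6.72 and 9.59 RPKM in KD and 17.5, 13.9 and 17.9 RPKM in controls (log2 fold change -1.06, adjusted p = 0.00834 by limma). *Naaa*, an amidase of *N*-acylethanolamines, had 4.01, 3.90 and 4.50 RPKM in KD and 9.00, 6.83 and 8.09 RPKM in controls (log2 fold change -0.80, adjusted p = 0.00691 by limma). *Naaa* was called with each library left out, and *Aspa* in 5 of 6 such settings, the exception being control replicate 3 with an adjusted p of 0.0507 by limma. Without KD replicate 3, 1 of 7 was higher and 3 were lower, beside 23.3% and 17.8% of all genes.

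**Figure D3:**
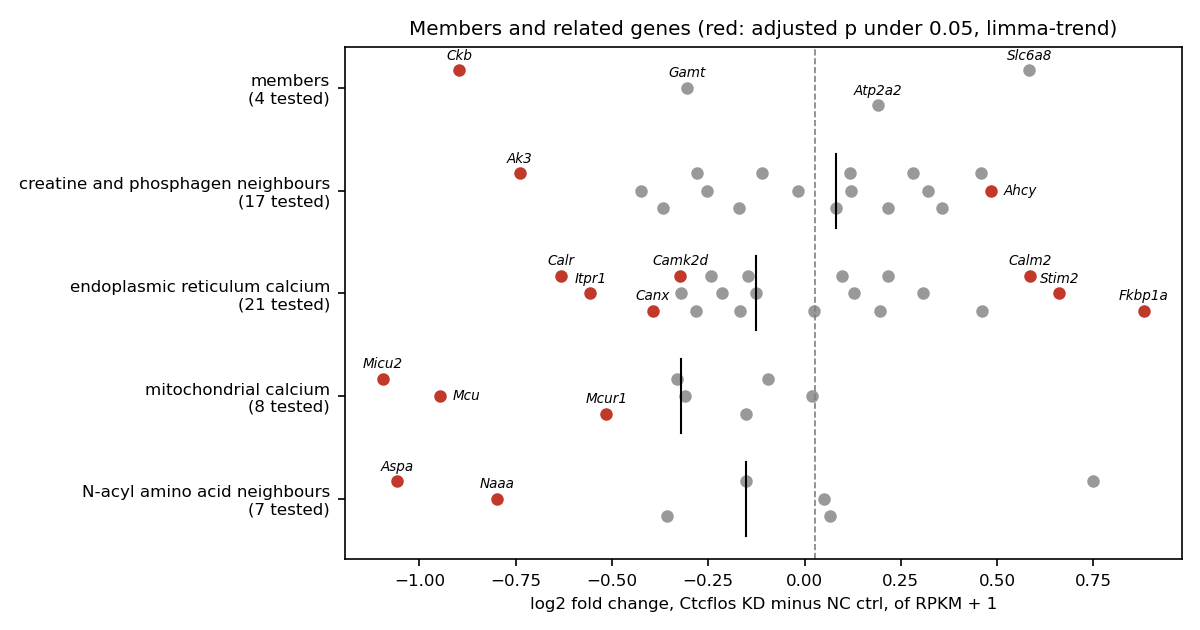
Log2 fold change of RPKM + 1 (*Ctcflos* KD minus controls) for the 4 members past the filter and the tested genes of 4 related lists. Red points have an adjusted p under 0.05 and are named, short vertical lines are list medians and the dashed line is the median of all genes tested; 3 genes of mitochondrial calcium are called lower, while genes of endoplasmic reticulum calcium are called in both directions.

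Markers of other cells and of the brite state were read beside *Ckb*. Of the 10 thermogenic markers, 8 were tested and 5 were called lower (*Ucp1*, *Elovl3*, *Otop1*, *Cpt1b* and *Ppargc1a*, beside 12.4% of all genes), and their summed level was 88.5 to 110 RPKM in KD and 146 to 225 RPKM in controls. *Dio2*, below the filter, was above the controls without overlap, at 0.410 against 0.197 RPKM (adjusted p = 0.203 by limma without a filter). *Prdm16*, also below the filter, was below the controls without overlap, at 0.137 against 0.266 RPKM (adjusted p = 0.138 by limma without a filter). The calls were 4 without KD replicate 3, *Ucp1* no longer among them (adjusted p = 0.0728 by limma), 3 without KD replicate 1, 5 without control replicate 2, and *Elovl3* alone without KD replicate 2, control replicate 1 or control replicate 3. Of the adipocyte markers, *Cebpa* was called lower and the other 9 did not pass the test, although the summed level of the list did not overlap between groups. Without KD replicate 3, where 23.3% of all genes were called higher and 17.8% lower, 5 of these 10 were called lower. *Cebpa* was not called when any other library was left out. Neural and glial markers, which bear on the brain-type kinase, summed to 1.45 to 1.67 RPKM in KD and 2.12 to 2.66 RPKM in controls, with *S100b* called lower and *Rbfox3* at 0 everywhere. Progenitor and fibroblast markers summed to 486 to 757 RPKM in KD and 650 to 890 RPKM in controls, and of 8 tested *Pdgfra* was called lower, at 60.1% of the control mean (adjusted p = 0.0104 by limma). Immune cell markers summed to 6.67 to 16.3 RPKM in KD and 8.13 to 27.7 RPKM in controls, with *Cd3e* at 0. Of the 2 tested, *Cd68* was called higher, at 3.24 against 1.08 RPKM (adjusted p = 0.023 by limma), and *Lyz2* overlapped between groups, while below the filter *Csf1r* was above the controls and *Ptprc* below them. Endothelial markers were all below the filter and summed to 0.689 to 1.25 RPKM in KD and 1.33 to 1.74 RPKM in controls, with *Pecam1*, *Tek* and *Emcn* lower without overlap between groups. Smooth muscle and pericyte markers summed to 52.5 to 115 RPKM in KD and 78.5 to 201 RPKM in controls, and both tested genes overlapped between groups. The calls of *S100b* and *Cd68* were both lost without KD replicate 1, KD replicate 2, control replicate 1 or control replicate 3, and that of *Pdgfra* without control replicate 1 or control replicate 3. Over all genes, leaving out KD replicate 1 or 2 gave 3.85% or 3.8% higher and 6.22% or 5.51% lower. Leaving out control replicate 1, 2 or 3 gave 1.13%, 5.34% or 1.11% higher and 2.47%, 8.19% or 2.04% lower. Without KD replicate 3, *Cd34* was also called higher, and *Lyz2* and *Acta2* lower. The part of these cell types in the *Ckb* values was not tested.

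**Figure D4:**
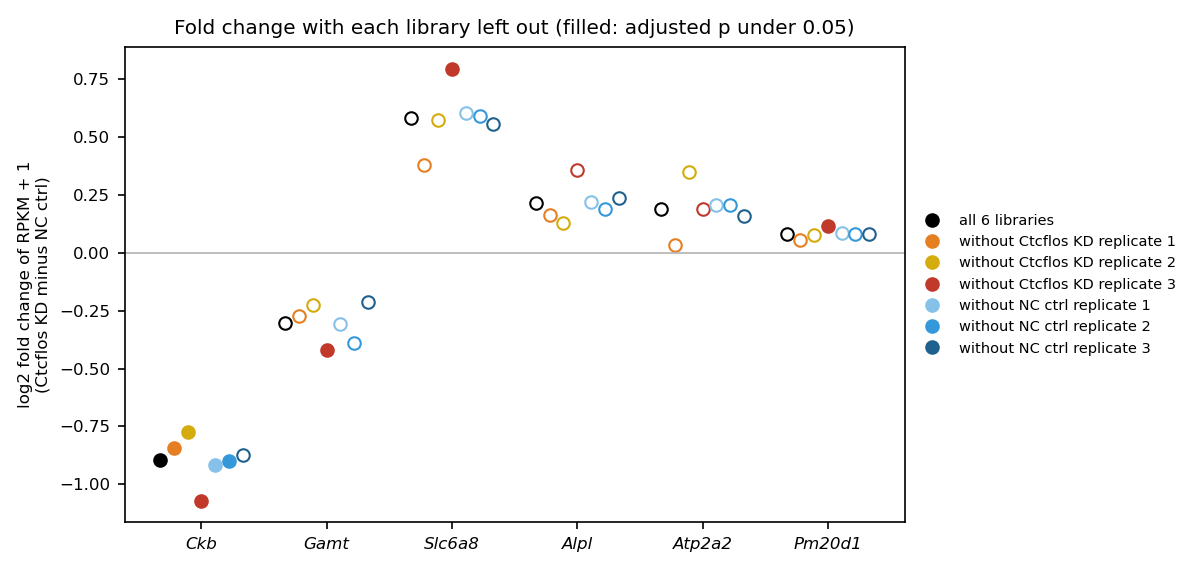
Log2 fold change of RPKM + 1 for 6 members with all 6 libraries and after leaving out each of them; filled points have an adjusted p under 0.05 by limma. *Ckb* stays between -1.07 and -0.77 and loses its call without control replicate 3, and *Gamt*, *Slc6a8* and *Pm20d1* are called without KD replicate 3 and in no other setting drawn. *Alpl* and *Pm20d1* are drawn from the fit without a filter. Without KD replicate 3, 23.3% of all genes past the filter were called higher and 17.8% lower.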

How the data were processed

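RNA-seq libraries of total RNA (TruSeq Stranded Total RNA, Illumina), 3 of *Ctcflos* KD and 3 of control cells, were analysed. The authors deposited RPKM values per transcript accession, written with decimal commas, in 168326 lines, of which 168021 were left after exact repeats were removed. How this table was made, and whether counting used the strand, is not given in the sources used here. Replicates were not pooled. RPKM are not counts, so count models were not used.

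Low RPKM of Ensembl transcripts with a Gencode vM21 length are whole multiples of 1 read (95.9 to 96.2% within 0.1 read), which gave the depth, and whole reads were recovered likewise for single RefSeq mRNAs. Reads cover counting error only.

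All accessions of a symbol were averaged to its gene value. Log2(RPKM + 1) was fitted with limma-trend (limma 3.58.1, R 4.3.3) for genes or accessions of mean RPKM at least 1, with Benjamini-Hochberg adjustment over all tested and a threshold of 0.05. Fold changes on this scale understate those of weak genes. Members below the filter were taken from the fit without one. For single values, exact permutation tests (two-sided) were used. The code was tested on simulated data.

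Members, lists and motifs were chosen with earlier results of these data known. Named genes are the 10 members, *Ctcflos*, *Ucp1*, paralogues and SERCA regulators, and up to 4 called genes per pathway list by p-value. Further called genes and markers were named after their values were seen. Lists were matched by symbol, 3 genes through an older one. A gene of the lists is not reported here and is left out of their counts. Gene spans (Gencode vM21, older symbols and RefSeq included) cover 81% of genes tested. Promoters come from the RefSeq table for GRCm38.p6, which matched 7 members in 9 windows. The sequence of the oligonucleotides was not used here.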

Additional observations from a re-analysis of the deposited data

How the results depend on the processing

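The count of members called (1 of 4) was 2 with RefSeq accessions alone, where *Slc6a8* joined *Ckb* (log2 fold change 0.61). In that fit 2900 of 9585 genes were called, against 2803 of 11701 in the main fit. With each library left out, the count of members called was 0 to 3. It was 3 without KD replicate 3 (23.3% of all genes higher, 17.8% lower) and 0 without control replicate 3 (1.11% higher, 2.04% lower). Over the same settings the log2 fold changes ranged from -1.07 to -0.77 for *Ckb*, from -0.42 to -0.21 for *Gamt*, from 0.38 to 0.80 for *Slc6a8* and from 0.057 to 0.12 for *Pm20d1*. The 12 accession calls became 4 without a filter on low values and 4 to 17 with a library left out, where all settings but KD replicate 3 gave 4. The share of all accessions called in these settings was not counted. The 14 calls among related genes became 9 without a filter and ranged from 3 (without control replicate 3) to 23 (without KD replicate 3). Over all genes, 2803 calls became 1807 without a filter, 1671 with the replicate number as a block, and 369 (without control replicate 3) to 4810 (without KD replicate 3). Usage calls among members stayed at 0 of 4, or 0 of 10 without a filter, in the settings in which usage was tested, which leave out both choices of a single set of accessions per gene. None of the member fold changes given here turned its direction under any of these alternatives. Without a filter more genes were tested, and with a library left out fewer libraries; otherwise the cause was not tested.

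The replicate numbers did not pair the libraries: after centring on the group means, libraries of the same number correlated at 0.29, -0.29 and -0.42. With the block, *Ckb* had an adjusted p of 0.0199 by limma, and no call of a member or of its usage changed, while *Ctcflos* and *Ucp1* had adjusted p-values of 0.113 and 0.0759 by limma. *Ucp1* had an adjusted p under 0.05 by limma in 1 of the 6 settings that leave out a library (without control replicate 2) and not in the fit without a filter, and *Ctcflos* also in 1 (without KD replicate 3). A pseudocount of 0.1, scaling by the median of ratios, limma without the trend and the accession with the highest mean left each member on its side of the threshold. The scaling put the share of higher calls at 45.8%, against 48.1%. Depth limits *Ckmt1*, *Ckmt2*, *Gatm* and *Ryr2*.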
